A study of Mus musculus with 12 samples.

Results

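The cytochrome P450 family 4 (Cyp4) genes described here encode microsomal enzymes that put a hydroxyl group on the terminal, or omega, carbon of fatty acids. The members were taken by symbol from the deposited gene table: Cyp4a10, Cyp4a12a, Cyp4a12b, Cyp4a14, Cyp4a31, Cyp4a32, Cyp4f13, Cyp4f14, Cyp4f15 and Cyp4v3, 10 genes of 23849 symbols. All 10 had a mean of at least 1 FPKM (fragments counted relative to transcript length and to the size of the library) over the 12 livers and were among the 9806 genes tested. Liver RNA came from male C57BL/6J mice, labelled as 8 weeks old, that were kept under 12 h of light and 12 h of dark and fed a high-fat diet (HFD) for 6 weeks. After 4 weeks of HFD they received vehicle (drinking water) or Policaptil Gel Retard, a fiber product that forms a gel and that the labels call Libramed, by gavage once a day at ZT11 for 2 weeks. Livers were taken at ZT0 or ZT12, where Zeitgeber time (ZT) counts hours from lights on, which gave 4 groups of 3 mice. No group on a normal diet was analysed here, so every value is from a mouse on HFD.

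Omega-hydroxylation is the entry to a side route of fatty acid breakdown. The hydroxylated acid is oxidized by alcohol and aldehyde dehydrogenases to a dicarboxylic acid, which is then shortened in peroxisomes. Enzymes of the 4A subfamily act on medium and long chain fatty acids and on arachidonic acid, and Cyp4a10 and Cyp4a14 are classical targets of PPARα, the nuclear receptor that senses fatty acids in hepatocytes. Cyp4a14 RNA is known to be more abundant in the female mouse liver, whereas Cyp4a12a and Cyp4a12b are male-biased genes under the control of growth hormone. Enzymes of the 4F subfamily act on very long chain fatty acids and on eicosanoids such as leukotriene B4, and Cyp4v3 is the mouse counterpart of human CYP4V2, a fatty acid hydroxylase mutated in a retinal dystrophy.

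Several members are near-identical copies, which bears on how far their values can be told apart. On mm10 the 6 Cyp4a genes stood in a cluster on chromosome 4, from Cyp4a12a (chr4:115299046-115332815, plus strand) through Cyp4a12b (chr4:115411624-115439034, plus), Cyp4a14 (chr4:115486200-115496142, minus), Cyp4a10 (chr4:115518264-115533649, plus) and Cyp4a31 (chr4:115563649-115579015, plus) to Cyp4a32 (chr4:115600969-115621602, plus). The 3 Cyp4f genes stood on chromosome 17, Cyp4f15 on the plus strand (chr17:32685627-32703352), Cyp4f14 (chr17:32905070-32917342) and Cyp4f13 (chr17:32924688-32947402) on the minus strand. Cyp4v3 (chr8:45304944-45333216, minus) stood alone on chromosome 8. Positions are those of whole genes, exons and introns included, and they and the sequences, which are coding exons, are from GENCODE vM21.

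Coding sequences of Cyp4a12a and Cyp4a12b were 98.5% identical, with 23 differing bases of 1527. Cyp4a10 was 97.2% identical to Cyp4a32 and 96.6% to Cyp4a31, and the latter pair 96.0% to each other. Cyp4a14, in contrast, was 75.1% identical to Cyp4a10. The stretch of 100 bases, the length of a read, in which each set of copies differed the most is shown, since such reads can be told apart. Capitals mark the positions at which the copies differ. The first pair covers coding bases 664 to 763.
Cyp4a12a: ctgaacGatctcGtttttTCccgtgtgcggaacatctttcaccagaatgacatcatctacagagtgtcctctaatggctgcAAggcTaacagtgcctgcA
Cyp4a12b: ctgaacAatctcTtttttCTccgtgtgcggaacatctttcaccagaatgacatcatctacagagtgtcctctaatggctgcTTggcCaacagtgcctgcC
The second set covers coding bases 162 to 261 and differs at 13 positions, against 8 in the first.
Cyp4a10: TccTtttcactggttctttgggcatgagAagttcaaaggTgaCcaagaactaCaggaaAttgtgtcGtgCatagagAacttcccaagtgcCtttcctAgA
Cyp4a31: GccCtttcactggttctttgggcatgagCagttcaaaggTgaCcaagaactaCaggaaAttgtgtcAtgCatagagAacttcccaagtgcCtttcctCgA
Cyp4a32: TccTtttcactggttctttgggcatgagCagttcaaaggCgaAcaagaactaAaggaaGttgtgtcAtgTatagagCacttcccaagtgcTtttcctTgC

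Over the whole transcript, 35.8% of the 100-base windows of Cyp4a12a and 36.2% of those of Cyp4a12b also occurred in the other copy. The share was 12.7% for Cyp4a10, 8.22% for Cyp4a31 and 20.1% for Cyp4a32, all within that trio, and 5.77% for Cyp4v3, with the gene Gm45753. It was 0 for Cyp4a14, Cyp4f13, Cyp4f14 and Cyp4f15, so that no window of the transcript used for these 4 genes occurred in a transcript of another gene. Windows from further transcripts of a member, and matches on the opposite strand, were not searched. A single transcript was used for each member, and that of Cyp4a32 held 1530 bases, all coding. Windows outside its coding part were therefore not counted. The values of Cyp4a12a, Cyp4a12b, Cyp4a10, Cyp4a31, Cyp4a32 and Cyp4v3 are uncertain at least to that extent, since how shared reads were counted is described in conflicting ways.

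Promoters in RefSeq (build GRCm38.p6) could be matched for 5 of the 10 members, Cyp4a32, Cyp4f13, Cyp4f14, Cyp4f15 and Cyp4v3, from 250 bases before to 50 after the start. An E-box, the letters CACGTG, which read the same on both strands, was found in that of Cyp4v3 and in 7.15% of all 32851 promoters. A direct repeat of AGGTCA with 1 base between the repeats, the kind of element PPARα binds, searched on both strands with at most 2 mismatches, was found in none of the 5 members and in 3.86% of all promoters. Such matches describe letters in a window and were not tested as sites.

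The depth of the libraries, known only relative to each other, differed by at most 1.74 times, and the summed FPKM of a library lay between 634683 and 759355. Hepatocyte markers reached a summed level of 46949 to 62780 FPKM, although Alb, the albumin gene, was listed at 0 in all 12 livers. Of 6 kidney markers, which matter because Cyp4a genes are also expressed in kidney, Aqp2 and Slc12a1 were at 0 in all livers, Umod reached 0.0224 and Slc34a1 0.0177 FPKM, and Cyp4b1, itself of the family, 3.56 FPKM. Kap reached 0.102 FPKM, so Cyp4b1 made up most of the sum of the 6 markers. That sum was 1.98 to 3.56 FPKM at ZT0 and 1.08 to 2.15 FPKM at ZT12 in vehicle mice. With Policaptil Gel Retard it was 2.51 to 3.12 and 1.30 to 1.71 FPKM, without overlap (as in 34.9% of all genes). Endothelial markers (7 genes) summed to 25.3 to 34.9 FPKM at ZT0 and 13.3 to 22.3 FPKM at ZT12 under vehicle, and to 32.8 to 40.9 and 20.4 to 22.3 FPKM under Policaptil Gel Retard. Most of that sum was Clec4g, which averaged 22.5 and 12.9 FPKM at ZT0 and ZT12 in vehicle mice and 26.1 and 15.2 FPKM in treated mice. Lyve1 did not fall in treated mice (0.328 and 0.344 FPKM). The other endothelial markers were lower at ZT12 on average in both treatments. Stellate cell markers (7 genes) summed to 49.9 to 70.2 FPKM at ZT0 and 23.8 to 43.0 FPKM at ZT12 with Policaptil Gel Retard, and overlapped between times in vehicle mice. Most of the stellate sum was Dcn, which averaged 46.7 and 28.7 FPKM at ZT0 and ZT12 with Policaptil Gel Retard. Kupffer cell and macrophage markers (10 genes measured) were at 70.7 to 81.9 FPKM in vehicle mice at ZT0, above both groups given Policaptil Gel Retard (40.4 to 65.3 FPKM at ZT0 and 43.6 to 67.7 FPKM at ZT12), and ranged from 35.1 to 93.7 FPKM in vehicle mice at ZT12. At ZT12 fat markers (5 genes) were at 11.5 to 42.8 FPKM in vehicle mice and 2.74 to 11.2 FPKM in treated mice, and bile duct markers (5 genes) at 41.5 to 43.8 and 26.4 to 38.5 FPKM. Most of the bile duct sum was Spp1, at 37.6 and 28.4 FPKM on average. Sox9 alone went the other way, at 0.767 and 1.08 FPKM. Fat markers were at 2.85 to 7.97 FPKM in vehicle mice at ZT0. Most of the fat marker sum was Cfd, which reached 42.8 FPKM. Adipoq and Plin1 reached no more than 0.0492 and 0.0381 FPKM, and Lep and Retn were at 0 in all 12 livers. Intestine markers (5 genes measured, of which Apoa4 and Fabp2 are also expressed in liver) were at 441 to 566 and 705 to 799 FPKM at ZT0 and ZT12 in vehicle mice, and at 487 to 787 and 350 to 696 FPKM in treated mice, with Vil1, Lct and Muc2 at no more than 0.0663 FPKM. Of all single genes tested, 33.2% did not overlap between times in vehicle mice and 34.9% with Policaptil Gel Retard. Between treatments the share was 15.1% at ZT0 and 13.1% at ZT12. The part of all these markers in the differences between times or treatments was not tested. In bulk liver, fewer cells of a type and less RNA per cell cannot be told apart.

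The most abundant members were Cyp4f14, at a mean of 149 FPKM over the 12 livers, and Cyp4v3, at 132 FPKM, which ranked 601 and 655 among the genes tested. Cyp4f15 followed at 85.8 FPKM, Cyp4a10 at 74.8 FPKM, Cyp4a14 at 61.1 FPKM, Cyp4a12a at 44.0 FPKM and Cyp4f13 at 42.3 FPKM. The copies Cyp4a12b, at 12.97 FPKM, and Cyp4a32, at 10.9 FPKM, were lower, and Cyp4a31, at 1.503 FPKM, was just above the minimum. Of the other 13 symbols of the family in the table, Cyp4b1 and Cyp4f17 passed the minimum, with at most 3.56 and 6.39 FPKM in any liver. Over time Cyp4b1 fell by 0.61 with Policaptil Gel Retard (adjusted p = 0.017 in limma) and by 0.58 over both treatments (adjusted p = 0.0051), and neither gene passed in vehicle mice alone or for treatment. The sum of the 10 members was 464 to 699 FPKM per liver. The Cyp4f genes gave a steady 251 to 312 FPKM of it and the Cyp4a genes between 81.1 and 346 FPKM.

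**Figure D1:**
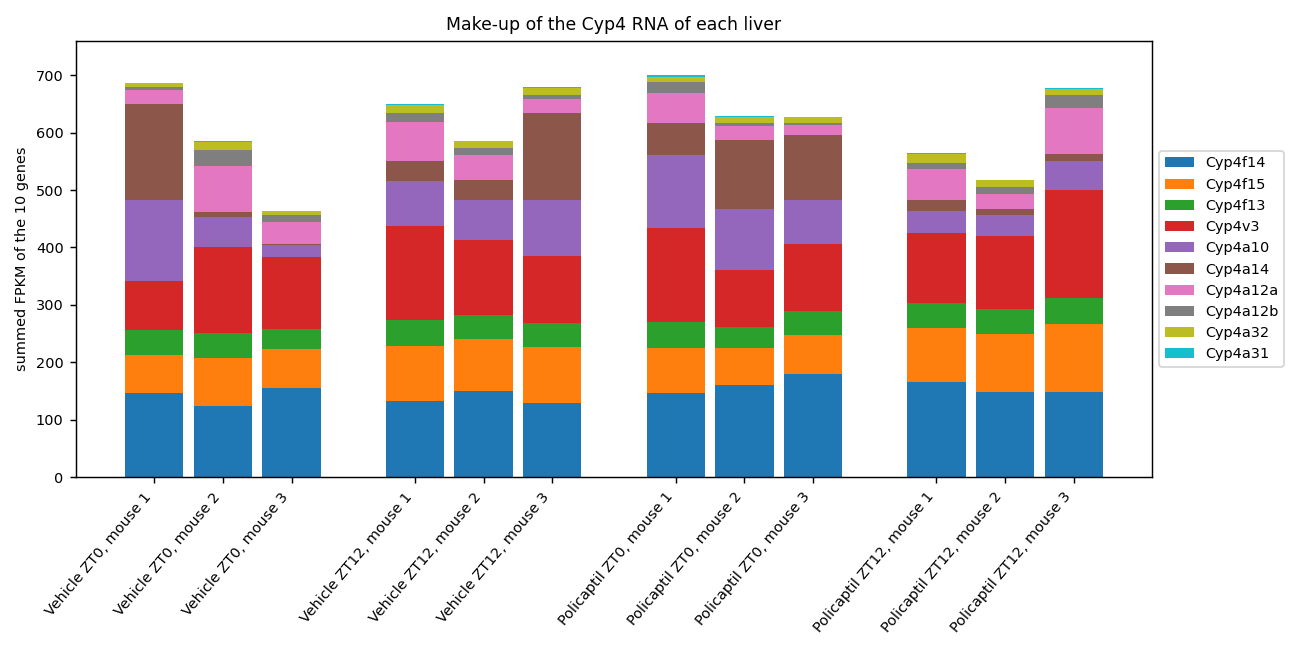
Stacked bars give the FPKM of the 10 members in each of the 12 livers, with the summed FPKM on the vertical axis and 3 mice in each of the 4 groups on the horizontal axis. The Cyp4f segments together were 251 to 312 FPKM high and Cyp4v3 ranged from 85.6 to 188 FPKM, while Cyp4a14 made up from 0.597% to 24.2% of the sum.

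Cyp4a14 varied the most between mice of the same group. In vehicle mice at ZT0 it measured 166, 8.65 and 2.77 FPKM, so that the highest liver was 60.1 times the lowest. Its within-group SD was 1.59 on the log2(FPKM + 1) scale, rank 41 of 9806 genes, against a median of 0.141 over all genes. Cyp4a12b (SD 0.85, rank 105), Cyp4a12a (0.79, rank 118) and Cyp4a10 (0.72, rank 144) were also among the most variable genes. By contrast, Cyp4f13 (0.12), Cyp4f14 (0.13) and Cyp4f15 (0.14) had a spread close to that of the median gene.

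**Figure D2:**
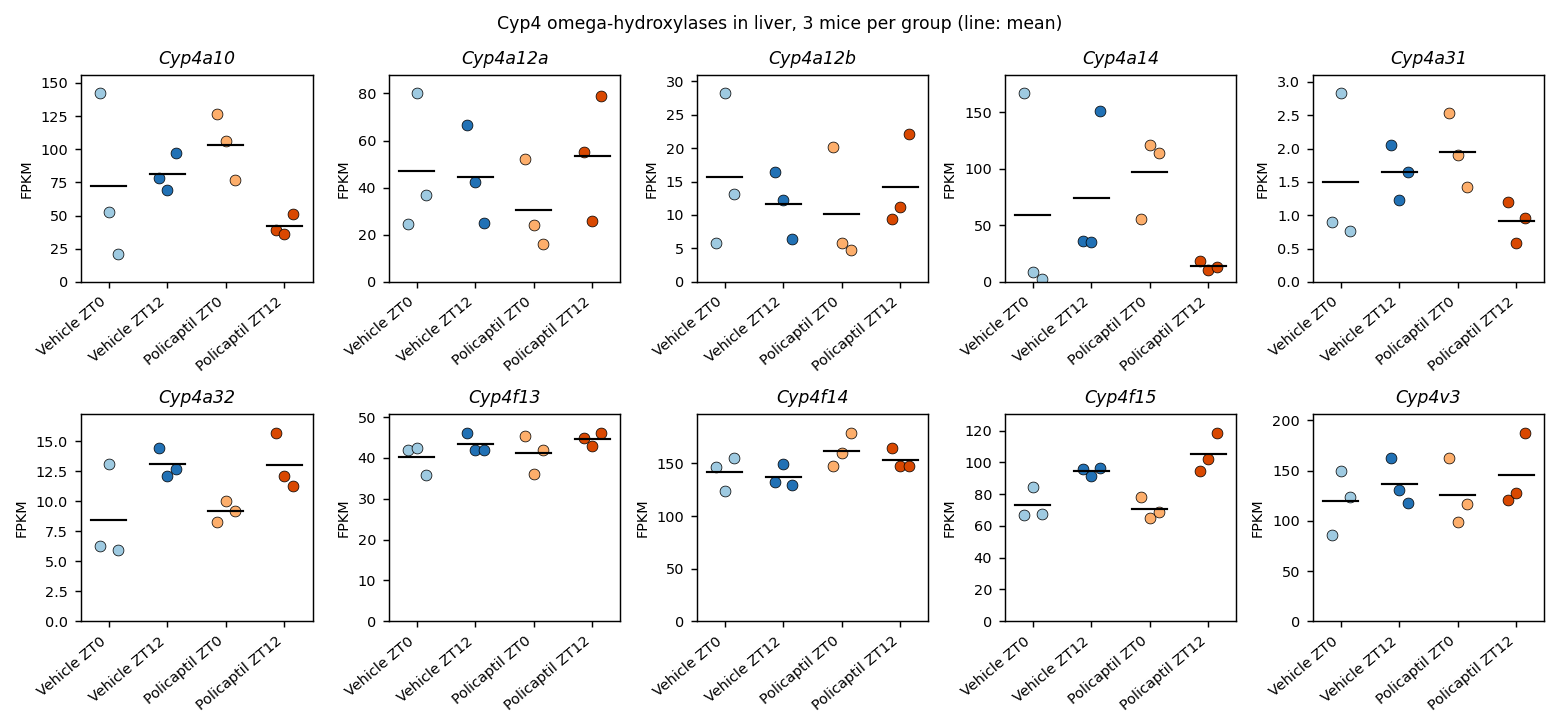
Each panel shows the FPKM of a member in the 12 livers, with a point for each mouse and a line at the mean of the 3 mice of the group. Cyp4a10 and Cyp4a14 were low in all 3 mice given Policaptil Gel Retard at ZT12, and Cyp4f15 was higher at ZT12 than at ZT0 in each treatment.

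To ask how the genes differed between the end (ZT0) and the beginning (ZT12) of the active phase, the times were compared within each treatment. In mice given Policaptil Gel Retard, Cyp4a14 and Cyp4a10 fell from ZT0 to ZT12 and Cyp4f15 rose. These were 3 of the 10 members at an adjusted p under 0.05 in limma, whereas 12.4% of all genes tested passed, and 5 members passed at an unadjusted p under 0.05, against 29.2% of all genes. In 5 members the groups did not overlap, against 34.9% of all genes. In vehicle mice 0 of 10 members passed the adjusted threshold in limma (10.4% of all genes) and 0 in Cyber-T, a second test that borrows the spread from genes of similar level. Unadjusted, 2 members passed (27.4% of all genes), and in 1, Cyp4f15, the groups did not overlap (33.2% of all genes).

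Cyp4a14, a hydroxylase of medium chain fatty acids, measured 55.8, 121 and 114 FPKM at ZT0 in mice given Policaptil Gel Retard. The livers taken at ZT12, from other mice of that treatment, had 18.8, 10.7 and 12.9 FPKM. All 3 livers at ZT12 were thus below all 3 at ZT0. The mean went from 96.9 ± 35.8 to 14.1 ± 4.22 FPKM (SD, n = 3, as for all group means here), a log2 difference of -2.65 (SE 0.32, limma adjusted p = 0.0044). In a fit of all 12 livers, whose shared spread includes the vehicle livers at ZT0, the adjusted p was 0.13 and the call was lost. In vehicle mice Cyp4a14 measured 36.1, 35.1 and 151 FPKM at ZT12, within the range seen at ZT0. The difference there was 1.69 with an SE of 1.36 (adjusted p = 0.48), which is within the spread between mice.

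Cyp4a10, which hydroxylates lauric acid and other fatty acids, followed the same order of groups. It was 127, 106 and 76.7 FPKM at ZT0 and 38.9, 36.4 and 50.9 FPKM at ZT12 in mice given Policaptil Gel Retard. The ranges did not overlap, and the mean fell from 103 ± 25.2 to 42.0 ± 7.76 FPKM (log2 difference -1.26, SE 0.20, adjusted p = 0.011), a call that was likewise lost in the fit of all 12 livers (adjusted p = 0.11), and also without a minimum FPKM (adjusted p = 0.054). Vehicle mice had 142, 52.6 and 21.4 FPKM at ZT0 and 78.4, 69.6 and 97.3 FPKM at ZT12. Here the livers at ZT0 lay on both sides of those at ZT12, with a difference of 0.56 (SE 0.60, adjusted p = 0.60).

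Cyp4f15, a member of the subfamily that oxidizes long chain acids and eicosanoids, was the member with the most regular time difference. Its level was 67.0, 84.2 and 67.8 FPKM in vehicle mice at ZT0 and 95.9, 91.4 and 96.5 FPKM at ZT12. With Policaptil Gel Retard it was 78.2, 65.0 and 68.6 FPKM at ZT0 and 94.4, 102 and 119 FPKM at ZT12. Every liver at ZT12 was above every liver at ZT0, in both treatments. The log2 difference was 0.56 (SE 0.11, adjusted p = 0.023) with Policaptil Gel Retard and 0.38 (SE 0.11, adjusted p = 0.073) in vehicle mice, where it did not pass. The difference of these differences was 0.19 (SE 0.16, adjusted p = 0.87), so the treatments were not shown to differ. The call with Policaptil Gel Retard was lost without mouse 2 or mouse 3 of either time (adjusted p from 0.062 to 0.074), and Cyber-T did not make it (adjusted p = 0.11).

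In the fit of all 12 livers, which took both treatments together, 2 members passed, Cyp4f15 and Cyp4a32, against 30.0% of all genes tested. Cyp4f15 was higher at ZT12 by 0.47 (SE 0.08, adjusted p = 0.0014; exact permutation p = 0.005, two-sided, the smallest that 400 arrangements allow). Cyp4a32 was 6.25, 13.1 and 5.96 FPKM in vehicle mice at ZT0 and 14.4, 12.1 and 12.7 FPKM at ZT12. With Policaptil Gel Retard the levels were 8.29, 10.02 and 9.19 FPKM at ZT0 and 15.7, 12.1 and 11.3 FPKM at ZT12. Vehicle mouse 2 at ZT0 stood among the livers of ZT12, and the others did not. The difference over both treatments was 0.55 (SE 0.16, adjusted p = 0.024, exact permutation p = 0.015). That call was lost, with an adjusted p from 0.052 to 0.056, without vehicle mouse 1 or 3 at ZT0, vehicle mouse 1 at ZT12, or mouse 1 of either time with Policaptil Gel Retard.

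Cyp4a31, the least abundant copy of Cyp4a10, was 2.53, 1.90 and 1.43 FPKM at ZT0 and 1.19, 0.585 and 0.963 FPKM at ZT12 with Policaptil Gel Retard. The groups did not overlap, but the difference of -0.62 (SE 0.17) had an adjusted p of 0.059. In vehicle mice it was 0.897, 2.83 and 0.763 FPKM at ZT0 and 2.06, 1.23 and 1.66 FPKM at ZT12, ranges that overlapped. With the 3 near-identical copies Cyp4a10, Cyp4a31 and Cyp4a32 summed, the level still fell with Policaptil Gel Retard (SE 0.18, adjusted p = 0.015), and the difference from vehicle at ZT12 was -0.77 (SE 0.13, adjusted p = 0.60).

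The other 5 members did not pass the test over time in either treatment. Cyp4f14, the leukotriene B4 hydroxylase of mouse liver, differed by -0.05 (SE 0.11) in vehicle mice and by -0.08 (SE 0.10) with Policaptil Gel Retard. Cyp4f13 differed by 0.11 (SE 0.10) and 0.12 (SE 0.10), and Cyp4v3 by 0.22 (SE 0.22) and 0.21 (SE 0.23). Cyp4f13 averaged 40.1 ± 3.73 and 43.4 ± 2.44 FPKM at ZT0 and ZT12 in vehicle mice, and 41.1 ± 4.68 and 44.6 ± 1.65 FPKM with Policaptil Gel Retard. Cyp4v3 averaged 119.8 ± 32.3 and 137 ± 23.0 FPKM, and 126 ± 33.1 and 145 ± 36.8 FPKM, in the same order. None of these neighbouring levels differed beyond the spread. Cyp4a12a, a male-biased enzyme that makes 20-HETE from arachidonic acid, differed by -0.01 (SE 0.48) and 0.81 (SE 0.50), and its copy Cyp4a12b by -0.25 (SE 0.54) and 0.61 (SE 0.52). Cyp4a12a was 24.5, 80.0 and 37.0 FPKM in vehicle mice at ZT0 and 66.5, 42.5 and 25.1 FPKM at ZT12. With Policaptil Gel Retard it was 52.0, 24.1 and 16.1 FPKM at ZT0 and 55.3, 26.1 and 79.0 FPKM at ZT12. In each group the highest liver had at least 2 times the level of the lowest, and all groups overlapped.

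To ask whether Policaptil Gel Retard altered the genes, it was compared with vehicle at each time. These comparisons use the same 12 livers as those over time, so the values for a group of mice return in both. At ZT12 the 3 members Cyp4a10, Cyp4a14 and Cyp4a31 were below vehicle with no overlap between groups (13.1% of all genes did not overlap). They had unadjusted p under 0.05 in limma, as had 6.74% of all genes. None of the 10 members, and 0% of all genes tested, passed the adjusted threshold in limma, while Cyber-T called 1 member, Cyp4a10, at an adjusted p of 0.026.

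Cyp4a10 was 38.9, 36.4 and 50.9 FPKM with Policaptil Gel Retard at ZT12, against 78.4, 69.6 and 97.3 FPKM with vehicle. The mean of 42.0 ± 7.76 FPKM compares with 81.8 ± 14.1 FPKM, a log2 difference of -0.94 (SE 0.16, adjusted p = 0.60). By unadjusted p it had rank 9 of the 9806 genes in that comparison. Cyp4a14 was 14.1 ± 4.22 against 74.1 ± 66.6 FPKM, a difference of -1.99 (SE 0.55, adjusted p = 0.73). Vehicle mouse 3, at 151 FPKM, set the mean of its group, but the other vehicle livers, at 36.1 and 35.1 FPKM, were also above the highest treated liver, at 18.8 FPKM, and the difference without mouse 3 was -1.31. Cyp4a31 differed by -0.47 (SE 0.16, adjusted p = 0.73). The exact permutation p was 0.1 for each of these genes, the smallest that 3 mice against 3 can give.

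At ZT0 0 of 10 members passed at an unadjusted or an adjusted p under 0.05, against 9.23% and 0% of all genes, and Cyber-T called 0. Each of the 10 members overlapped between the treatments, whereas 15.1% of all genes did not overlap. Cyp4a14 was higher on average with Policaptil Gel Retard, at 96.9 ± 35.8 against 59.3 ± 92.9 FPKM, but the difference of 2.34 had an SE of 1.26 (adjusted p = 0.64). Vehicle mouse 1 was above all treated livers, and vehicle mice 2 and 3 were below all of them. Cyp4a10 differed by 0.88 (SE 0.60, adjusted p = 0.71), with vehicle mouse 1 above all treated livers and vehicle mice 2 and 3 below them. Without vehicle mouse 1 or mouse 3 these differences were 3.94 or 1.21 for Cyp4a14 and 1.56 or 0.22 for Cyp4a10.

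The interaction tested whether the time difference was the same in both treatments. The differences in vehicle mice were within their spread, and that of Cyp4a10 went from 0.56 to -0.095 without vehicle mouse 3 at ZT0 and to 1.24 without vehicle mouse 1. That of Cyp4a14 was 0.55 without vehicle mouse 3 at ZT0, 3.29 without vehicle mouse 1 at ZT0 and 1.003 without vehicle mouse 3 at ZT12. The interaction was -4.34 (SE 1.55) for Cyp4a14 and -1.82 (SE 0.70) for Cyp4a10. Exact permutation p, from 400 arrangements of treatment within each time, was 0.04 and 0.035. Such arrangements assume no treatment difference at either time, so this p does not test the interaction alone. Cyp4a14 and Cyp4a10 were the 2 members at an unadjusted p under 0.05 in limma, against 6.63% of all genes. None of the 10 members and 0% of all genes passed after adjustment in limma (adjusted p = 0.66 and 0.69). Cyber-T called 1 member, Cyp4a14 (adjusted p = 0.020). The vehicle group at ZT0, in which Cyp4a14 ranged over 60.1 times, enters this contrast. Without vehicle mouse 3 or mouse 1 of that group the interaction was -3.20 or -5.94 for Cyp4a14, and -1.17 or -2.50 for Cyp4a10.

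**Figure D3:**
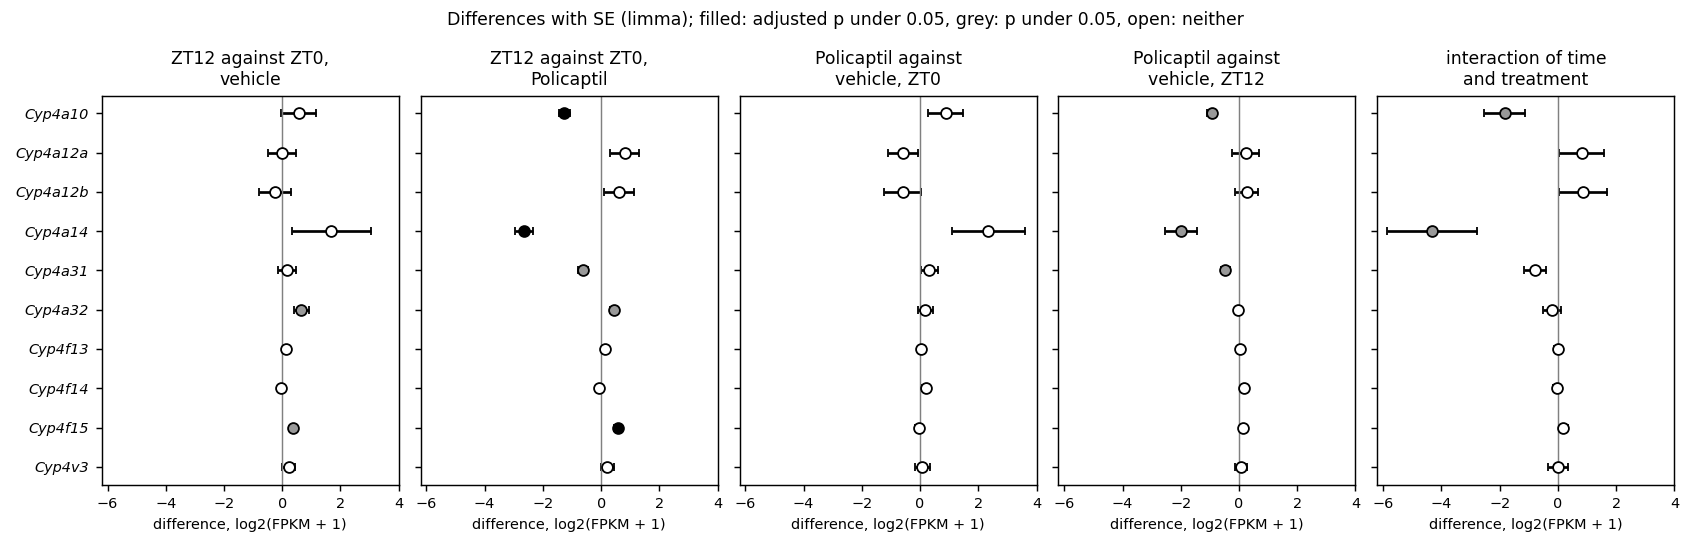
Points show the difference of each member on the log2(FPKM + 1) scale and bars its SE, for 4 comparisons of 3 mice against 3 and for the interaction over 12 mice. Filled points passed an adjusted p under 0.05 in limma, namely Cyp4a10, Cyp4a14 and Cyp4f15 over time with Policaptil Gel Retard, grey points had an unadjusted p under 0.05, and open points neither.

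Over both times, 0 of 10 members passed the adjusted threshold for treatment in limma (0% of all genes) and 0 in Cyber-T. The smallest p was that of Cyp4f14, the only member under 0.05 unadjusted. Its level was 147, 160 and 179 FPKM at ZT0 and 165, 148 and 147 FPKM at ZT12 with Policaptil Gel Retard. Vehicle mice had 146, 124 and 155 FPKM at ZT0 and 132, 149 and 129 FPKM at ZT12. The treated livers were higher on average, by 0.18 (SE 0.08, adjusted p = 0.46; exact permutation p = 0.04), but ranges overlapped at each time.

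Among the Cyp4a genes, levels were related over the 12 livers in 2 of 15 pairs after adjustment over the pairs. The permutations moved livers across groups, so differences between group means enter these p-values, which do not measure the relation within groups alone. Cyp4a10 and Cyp4a14 had a Pearson r of 0.90 over the 12 livers (adjusted permutation p = 0.0010) and a Spearman rho of 0.89 (adjusted permutation p = 0.0018). The relation was 0.81 without the 2 livers farthest from the median of Cyp4a10 and 0.84 after removal of the group means. However, r was positive within 2 of the 4 groups only, those given vehicle. Vehicle mice at ZT0, in which Cyp4a14 ranged over 60.1 times, enter each of these values. Cyp4a12a and Cyp4a12b had r = 0.90 (adjusted permutation p = 0.0010) and rho = 0.91 (adjusted permutation p = 0.0012), with 0.84 without the 2 farthest livers, 0.90 without group means, and r above 0 within each of the 4 groups. The part of the shared windows of these copies in that value was not tested. The ratio of Cyp4a12b to Cyp4a12a varied between 0.170 and 0.429.

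Cyp4a12b and Cyp4a14 ran in opposite directions, with r = -0.68 and rho = -0.66, negative within each of the 4 groups, but an adjusted permutation p of 0.086 and 0.12. Livers with the highest Cyp4a14, vehicle mouse 1 at ZT0 (166 FPKM) and vehicle mouse 3 at ZT12 (151 FPKM), had 5.88 and 6.40 FPKM of Cyp4a12b, near the lower end of its range of 4.75 to 28.2 FPKM. The liver with the highest Cyp4a12b, vehicle mouse 2 at ZT0, had 8.65 FPKM of Cyp4a14. Between Cyp4a10 and its low copies, r was 0.48 with Cyp4a31 and -0.11 with Cyp4a32 (adjusted permutation p = 0.34 and 0.79).

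**Figure D4:**
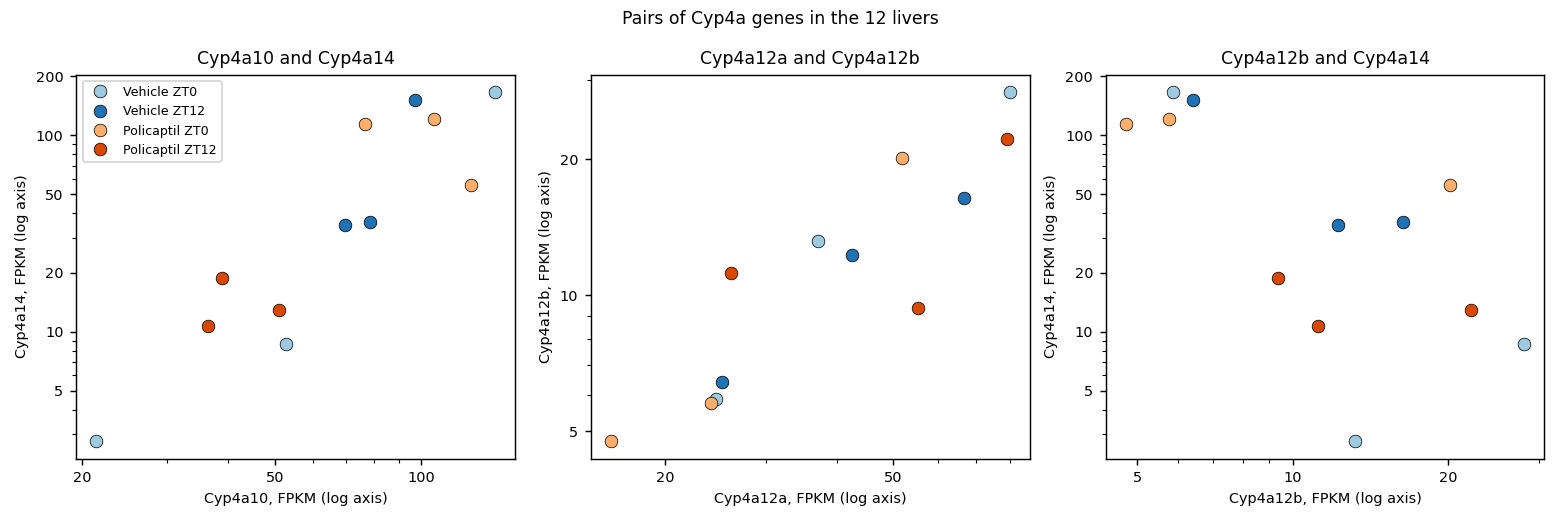
Each point is a liver, with the FPKM of a Cyp4a gene on each axis (both axes logarithmic) and colours for the 4 groups. Cyp4a10 and Cyp4a14 rose together (r = 0.90), as did Cyp4a12a and Cyp4a12b (r = 0.90), while 4 livers with the lowest Cyp4a12b had the highest Cyp4a14.

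Outside the family, the genes with the most similar course over the 12 livers were named for each member, by Pearson r of log2(FPKM + 1) and as a description. They were picked as the highest r among all genes tested, so a high r follows in part from the picking and was not tested. For Cyp4a10 they were Ech1, a peroxisomal and mitochondrial dienoyl-CoA isomerase (r = 0.81), Tmem41a (0.81) and Arsa (0.81). For Cyp4a14 they were Arsa, the lysosomal arylsulfatase A (0.93), the P450 gene Cyp2c68 (0.90) and C1rl (0.87). Cyp4a12a was most like Mpp5 (0.91), Tank (0.88) and Ugt2b38, a glucuronosyltransferase gene (0.87), and Cyp4a12b most like Aadat, Jak1 and Alas2 (each 0.94). Some of these varied little, such as Mpp5 (1.63 to 2.31 FPKM) and Jak1 (13.1 to 16.3 FPKM). Cyp4v3 was most like Selenbp2 (0.94), which ranged from 83.4 to 990 FPKM, Adtrp (0.92) and Nlrp6 (0.92). Cyp4f15 was most like Cdk18 and Ndufaf4 (each 0.97) and Tmbim1 (0.96), and Cyp4f14 most like Paox (0.93), Birc3 (0.90) and Pmf1 (0.88). For Cyp4f13 the genes were Utp15 (0.93), Gss (0.89) and Higd2a (0.89), for Cyp4a32 Smad7 (0.90), Ctif (0.89) and Ewsr1 (0.89), and for Cyp4a31 Hyal2 (0.85) and Zfp362 (0.83).

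The other genes of the route were followed from hand-made lists. P450 enzymes receive electrons from Por, the P450 oxidoreductase, and from cytochrome b5. In vehicle mice, 2 of the 4 redox genes rose from ZT0 to ZT12 and none fell. Of all genes tested, 10.4% passed in vehicle mice and 12.4% with Policaptil Gel Retard. Por went from 63.0 ± 23.6 to 300.1 ± 69.5 FPKM (log2 difference 2.28, adjusted p = 0.0095) and Cyb5a by 0.61 (adjusted p = 0.012). With Policaptil Gel Retard, Por rose by 2.25 (adjusted p = 0.0037) and Cyb5a by 0.51 (adjusted p = 0.039), and Cyb5b fell by 0.46 (adjusted p = 0.033). The redox partner Por thus rose in both treatments, unlike Cyp4a10 and Cyp4a14.

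Of 8 tested alcohol and aldehyde dehydrogenases, which carry the omega-alcohol on to the acid, 2 rose and 1 fell at ZT12 in each treatment. The share that passed among all genes was 10.4% in vehicle mice and 12.4% with Policaptil Gel Retard. Adh4 fell by 0.63 in vehicle mice and by 0.82 with Policaptil Gel Retard (adjusted p = 0.0093 and 0.0042). Aldh3a2, the fatty aldehyde dehydrogenase, rose by 0.82 in vehicle mice (adjusted p = 0.018) and differed by 0.28 with Policaptil Gel Retard (adjusted p = 0.24), and Aldh1a1 rose by 0.41 (adjusted p = 0.041) and differed by 0.16 (adjusted p = 0.56). Adh1 rose by 0.59 (adjusted p = 0.034) and Adh5 by 0.33 (adjusted p = 0.046) with Policaptil Gel Retard. In vehicle mice their differences were 0.56 (adjusted p = 0.058) and 0.31 (adjusted p = 0.11).

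Of 20 peroxisomal genes tested, 8 rose at ZT12 and 0 fell in vehicle mice, where 10.4% of all genes passed. Unadjusted, 13 had a p under 0.05 (27.4% of all genes). With Policaptil Gel Retard 9 rose and 1 fell (12.4% of all genes), and again 13 passed unadjusted (29.2%). The median log2 difference of this list was 0.66 and 0.52, beside 0.01 for all genes in both. In vehicle mice they included Acaa1b, a thiolase (0.99), Decr2 (0.97) and Pex11a, which promotes peroxisome division (1.26). With Policaptil Gel Retard Decr2 rose by 0.75 and Pex11a by 1.12, and the carnitine octanoyltransferase Crot fell by 1.14. In the same mice Cyp4a10 and Cyp4a14 fell.

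Among 20 tested mitochondrial and other PPARα targets, 8 rose and 1 fell over time in vehicle mice (10.4% of all genes passed). With Policaptil Gel Retard 3 rose and 1 fell (12.4% of all genes passed). The former included the uncoupling protein Ucp2 (1.02), the acyl-CoA dehydrogenase Acadl (0.48), Cpt1a, which admits fatty acids to mitochondria (0.78), and the pantetheinase Vnn1 (1.33). The latter were Angptl4, an inhibitor of lipoprotein lipase (1.53), Cpt1a (0.54) and the carnitine carrier Slc25a20 (0.46), with the lipid droplet gene Plin2 fallen by 0.60. Whether the treatments differed in these counts was not tested. Of 21 tested regulators, 6 rose and 3 fell in vehicle mice (10.4% of all genes passed). With Policaptil Gel Retard 8 rose and 2 fell (12.4% of all genes). The clock-controlled Tef rose by 1.39 and 1.19, and the xenobiotic receptor Nr1i3 by 1.14 and 0.89, in vehicle and treated mice respectively. The bile acid receptor Nr1h4 rose by 0.49 and 0.57, Nr1i2 by 1.004 and 0.80 and the clock-controlled Dbp by 3.05 and 1.44, and the clock repressor Nr1d1 changed by -1.97 and -2.73, in the same order, all at an adjusted p under 0.05. Ppara itself was 34.9 ± 7.78 and 45.0 ± 5.11 FPKM at ZT0 and ZT12 in vehicle mice and 31.0 ± 4.69 and 42.0 ± 3.94 FPKM with Policaptil Gel Retard, and did not pass within either treatment (adjusted p = 0.21 and 0.069).

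For Policaptil Gel Retard against vehicle at ZT12, where Cyp4a10 was lower, no gene of these lists passed the adjusted test in limma. Of the PPARα targets 4 of 20 had an unadjusted p under 0.05, beside 6.74% of all genes, with a median difference of -0.21 and 3 of 20 above 0. Vnn1 (-0.95, adjusted p = 0.70) and Hadha (-0.22, adjusted p = 0.73) had the smallest p. Of the peroxisomal genes 3 of 20 had an unadjusted p under 0.05, with a median of -0.16, Acsl1 (-0.37) and Crot (-0.49) having the smallest p. The median of all genes was -0.01. Ppara differed by -0.10 (SE 0.11). At an unadjusted p under 0.05 were 0 of 4 redox partners, 2 of 8 dehydrogenases and 3 of 21 regulators.

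At ZT0 the PPARα targets had 3 of 20, the peroxisomal list 1 of 20 genes and the regulators 6 of 21 at an unadjusted p under 0.05, beside 9.23% of all genes, and none after adjustment in limma. Of the PPARα targets Fabp1, the liver fatty acid binding protein, and the thioesterase Acot1 had the smallest p, with differences of 0.63 and 0.78 (adjusted p = 0.33 and 0.52). Of the peroxisomal genes Acaa1b differed by 0.36 (adjusted p = 0.62). In the interaction, 6 of 20 PPARα targets had an unadjusted p under 0.05, beside 6.63% of all genes, and the list a median of -0.29, with Acot2 (-0.85) and Acadl (-0.38) having the smallest p, and none passed after adjustment.

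Because Cyp4a12a, Cyp4a12b and Cyp4a14 are sex-biased genes, other genes known for a male or female bias in mouse liver were counted in these male mice. Of 14 male-biased genes tested, 1 fell over time in vehicle mice, the fatty acid elongase Elovl3 (-1.91, adjusted p = 0.035), and 2 fell with Policaptil Gel Retard, Elovl3 (-1.72, adjusted p = 0.0044) and Hsd3b5 (-0.87, adjusted p = 0.034). Of all genes tested, 10.4% and 12.4% passed in these 2 comparisons over time. None of the 14 male-biased genes had an unadjusted p under 0.05 for the treatment at either time. The share of all genes was 9.23% at ZT0 and 6.74% at ZT12. Of 20 female-biased genes, Cyp4a14 included, 6 were expressed above the minimum. Among those, Fmo2 rose over time in vehicle mice (1.54, adjusted p = 0.032), and Acot3 rose with Policaptil Gel Retard (1.60, adjusted p = 0.043), where Cyp4a14 fell.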

How the data were processed

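Liver RNA-seq of 12 mice was used, 3 in each of 4 groups taken from the labels. Per the labels and the methods, mRNA libraries were sequenced for 100 cycles. The methods name ELAND, mm10 with UCSC splice junctions, removal of reads without a unique best match, and RPKM, whereas the submitters' processing notes name TopHat and Cuffnorm with mm10 (GRCm38). The deposited values are FPKM per gene, and neither counts nor depth are given. Where a symbol was repeated (289 of 24138 lines), only the line of highest mean entered.

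The 9806 genes that averaged 1 FPKM or more were put on the log2(FPKM + 1) scale and tested with limma 3.58.1 in R 4.3.3 (mean-variance trend, two-sided) and Benjamini-Hochberg adjustment over all genes tested. Comparisons of 2 groups used their 6 livers, and combined effects and the interaction all 12. Fold changes on this scale understate changes of low genes. Single members were also tested by exact permutation, and correlations by permutation (100000 resamples). Calculations were tested on simulated data. Alternatives were a pseudocount of 0.1, no minimum, a minimum of 5 FPKM, median-ratio scaling, quantile normalization, no trend, Cyber-T, a replicate block, summed copies, all 12 livers in each fit, and each library left out. Nothing states that mice were housed or processed separately, so p-values measure the spread between these samples. Members, gene lists and named genes were chosen with earlier results of these data known. Named were the members, from each list up to 4 genes with the smallest p among those called (or 2 where none was), and the 3 genes with the most similar level per member, less a few results that are not reported here. Ppara, and single livers in the account of pairs, were named after their values were seen.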

Additional observations from a re-analysis of the deposited data

Results flagged for a closer look

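For 2 of the 10 members the interaction of time and treatment had an unadjusted p under 0.05 in limma, against 6.63% of all genes. The interaction was -4.34 on the log2(FPKM + 1) scale for Cyp4a14 (p = 0.017, adjusted p = 0.66, exact permutation p = 0.04). In vehicle mice its difference from ZT0 to ZT12 was 1.69, and with Policaptil Gel Retard it was -2.65. For Cyp4a10 the interaction was -1.82 (p = 0.024, adjusted p = 0.69, exact permutation p = 0.035), from 0.56 in vehicle mice and -1.26 with Policaptil Gel Retard. Leaving out each library in turn gave -5.94 to -3.20 for Cyp4a14 and -2.50 to -1.17 for Cyp4a10, the ends without vehicle mouse 1 and mouse 3 at ZT0. Neither passed after adjustment over 9806 genes, and the exact permutation p does not test the interaction alone. Vehicle livers at ZT0 had 166, 8.65 and 2.77 FPKM of Cyp4a14.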

How the results depend on the processing

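The 3 members called over time with Policaptil Gel Retard became 1 without a minimum FPKM (Cyp4a10 and Cyp4f15 lost, adjusted p = 0.054 and 0.066) and 1 in a fit of all 12 livers, and 2 to 3 with a library left out. In the fit of all 12 livers Cyp4a14 (adjusted p = 0.13) and Cyp4a10 (0.11) were no longer called. In vehicle mice the count of 0 became 1 in the fit of all 12 livers (Cyp4f15, adjusted p = 0.045), and 0 to 2 with a library left out, the 2 being Cyp4a32 and Cyp4f15 without vehicle mouse 2 at ZT0. Over both treatments the 2 members became 1 in Cyber-T (Cyp4f15 lost, adjusted p = 0.14), 1 with summed copies, where Cyp4a32 was no longer counted alone, and 1 to 2 with a library left out. Cyber-T gave 1 in place of 0 for treatment at ZT12 and 1 in place of 0 for the interaction. For treatment at ZT0, at ZT12 and over both times and for the interaction, leaving out a library gave 0 throughout. Of 19 results for single genes, 1 turned its direction: without vehicle mouse 3 at ZT0 the time difference of Cyp4a10 in vehicle mice was -0.095 instead of 0.56, and leaving out each library gave -0.095 to 1.24. Of 173 values of these results under the other alternatives, 163 kept their direction and side of the threshold, 7 lost a call and 3 gained one, and none reversed. With the replicate block, 2 members were called over time with Policaptil Gel Retard, since Cyp4f15 had an adjusted p of 0.060, and 2 over both treatments. Samples of the same replicate number did not deviate together more than others (r from -0.28 to 0.34 in 18 pairs, 4 over 0.1). For different numbers r was -0.41 to 0.36. No pairing by number was seen, which does not show that there was none. The cause of these shifts was not tested. With no counts given, no counting error can be set beside a low gene such as Cyp4a31.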
